A study of Mus musculus with 24 samples.

Results

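Neurog3 and 8 transcription factors that act early in the endocrine cascade were followed in RNA of eGFP-positive cells sorted from mouse embryos at E15.5. The 9 genes, Neurog3, Neurod1, Neurod2, Insm1, Pax4, Nkx2-2, Nhlh1, St18 and Myt1, were taken by symbol from a table of 40173 genes, and all 9 were found. In the mouse line used, eGFP stands in for the coding part of Neurog3 (Ngn3), so every sorted cell carries at least 1 eGFP allele and eGFP marks cells in which the Neurog3 locus is active. Ngn3eGFP/+ dams, 6 weeks old, were put on normal (ND), high-fat (HFD) or low-protein (LPD) food 2 weeks before they were crossed with Ngn3eGFP/+ males and stayed on it during pregnancy. Tissue from embryos of both sexes was pooled. By their titles, the pancreatic libraries were 3 control and 4 mutant on ND, 3 control and 3 mutant on HFD, and 4 control and 4 mutant on LPD. One more ND library, whose genotype is mixed, and 1 hypothalamic library of each title enter no test.

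Titles and genotype field disagree: where the title says control the field has Ngn3eGFP/eGFP, and where it says mutant the field has Ngn3eGFP/+, yet the design text calls Ngn3eGFP/eGFP cells uncommitted. Neurog3 itself followed the titles, as the values further on show, and groups are therefore called titled control and titled mutant. No source says if replicates are separate litters, so p-values measure the spread between these libraries, which may be technical.

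Neurog3 is a basic helix-loop-helix (bHLH) factor that is made for a short time in progenitors of the pancreatic epithelium and commits them to the endocrine lineage. Mice without it form no islet endocrine cells. Notch signalling, through Hes1, keeps it off in neighbouring progenitors. With E-protein partners it binds E-boxes, short motifs of the form CANNTG, and it turns on a cascade of further factors. In that cascade Neurod1, Neurod2 and Nhlh1 are bHLH proteins that also serve in neurons, and Pax4 and Nkx2-2 are homeodomain proteins of the beta-cell lineage. Insm1, St18 and Myt1 are zinc-finger proteins, the last pair of the myelin transcription factor family.

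On build GRCm38.p6 the positions in the table equalled those of GENCODE M21 for all 9 genes. Neurog3 (ENSMUSG00000044312.4) spans chr10:62133090-62134763 on the plus strand. Coding sequence, from 62133463 to 62134104, makes up 642 of its 1674 exonic bases, or 38.4%, so gene counts also collect reads from the untranslated remainder. Neurod1 lies at chr2:79452521-79456751, Insm1 at chr2:146221921-146225020, Nkx2-2 at chr2:147177546-147194243 and Myt1 at chr2:181763332-181827797, which puts 4 of the 9 genes on chromosome 2. Insm1 and Nkx2-2 are 952526 bases apart. Neurod2 lies at chr11:98325415-98329648 and Pax4 at chr6:28442334-28449353. Nhlh1 at chr1:172052292-172057573 and St18 at chr1:6487231-6860940 share chromosome 1. Within 273 noncoding exonic bases Neurog3 overlaps Fam241b on the opposite strand, and Neurod1 shares 201 noncoding exonic bases with Cerkl on its own strand. A stretch of 278 coding bases of Nkx2-2 overlaps the antisense Nkx2-2os, which stood at 0 to 0.275 FPKM in all 21 libraries. Libraries were made strand-specifically per the labels' protocols, but the sources used here give no strand setting for the counting, so reads of these overlapping pairs may be mixed.

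Promoters are shown for 5 of the 6 members that RefSeq's promoter table on GRCm38.p6 holds (Myt1 is the sixth). Each line gives the bases before the RefSeq start, 5′ to 3′ on the gene's strand, up to the first annotated exon, with E-boxes (CANNTG, which reads alike on both strands) in capitals. Neurog3 is shown from chr10:62132840-62133089 (plus), Neurod1 from chr2:79456786-79456886 (minus), Neurod2 from chr11:98329649-98329895 (minus), Nhlh1 from chr1:172057597-172057846 (minus) and Nkx2-2, whose RefSeq start lies inside its longer annotation, from chr2:147186456-147186652 (minus).
Neurog3: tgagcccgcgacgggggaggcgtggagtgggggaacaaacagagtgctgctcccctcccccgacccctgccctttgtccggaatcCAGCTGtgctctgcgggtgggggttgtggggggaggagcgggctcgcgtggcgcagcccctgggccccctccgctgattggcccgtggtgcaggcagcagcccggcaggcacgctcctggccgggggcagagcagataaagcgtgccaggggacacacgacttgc
Neurod1: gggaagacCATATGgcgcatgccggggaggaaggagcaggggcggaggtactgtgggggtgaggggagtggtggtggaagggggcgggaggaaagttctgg
Neurod2: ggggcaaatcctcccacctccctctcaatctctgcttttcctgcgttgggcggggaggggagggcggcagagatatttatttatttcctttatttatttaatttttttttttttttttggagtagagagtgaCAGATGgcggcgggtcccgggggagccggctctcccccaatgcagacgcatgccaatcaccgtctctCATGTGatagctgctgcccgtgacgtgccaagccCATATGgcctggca
Nhlh1: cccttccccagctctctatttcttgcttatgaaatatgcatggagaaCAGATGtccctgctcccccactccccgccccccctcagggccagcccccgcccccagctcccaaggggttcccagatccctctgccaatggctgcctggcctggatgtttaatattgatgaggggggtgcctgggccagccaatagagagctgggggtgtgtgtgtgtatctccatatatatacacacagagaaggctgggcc
Nkx2-2: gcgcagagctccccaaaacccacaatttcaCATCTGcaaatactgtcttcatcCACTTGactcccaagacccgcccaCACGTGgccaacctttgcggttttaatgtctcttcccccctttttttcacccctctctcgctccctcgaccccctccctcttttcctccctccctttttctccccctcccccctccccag

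Over the full 300-base windows (250 before and 50 after the start), CANNTG occurred once in Neurog3 and in Neurod1, 2 times in Nhlh1, and 3 times in Neurod2 and in Nkx2-2. Of 32817 promoter windows of that length, 72.3% held at least 1 CANNTG and 17.6% at least 3. The form CATATG, which also reads alike on both strands, was found in Neurod1 and Neurod2 and in 3.92% of all windows. CAGATG, searched on both strands, was found in Neurod2, Nhlh1 and Nkx2-2 and in 17.2% of all windows. The E-box of Neurog3 was CAGCTG, present in 16.3% of windows. Myt1 had 3 windows with 0, 2 and 1 E-boxes.

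Total counts per library ran from 17922240 to 44688814. Gm26917, a noncoding RNA used here as a measure of library quality, took 32.7% of counts in control ND 2, 33.4% in mutant ND 3 and 66.9% in mutant ND 2, against 9.21 to 18.7% in the other 18 pancreatic libraries of the groups. Those 3 also had the most duplicate reads (72.2 to 79.4%, against 37.7 to 65.5%). Acinar markers were present in every pancreatic library of the groups, with 12 marker genes summing to at least 6662 CPM (counts scaled to a common library size). Hormone genes were present in every titled control library. In the fit, 23630 genes passed the filter on low counts, all 9 factors among them through the titled control groups where they are high. CPM values are scaled by TMM (edgeR's trimmed mean of M-values) unless stated otherwise, and a gene is called at an adjusted p under 0.05.

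The first question was what becomes of the cascade where Neurog3 is low. All 9 factors were called lower in titled mutant on each of the 3 diets. Of all 23630 tested genes, 13.3% were called lower in titled mutant on ND, 5.64% on HFD and 10.4% on LPD. The factors fell to different depths. On ND, Neurod1, Neurod2, Nhlh1 and Pax4 went to 0 to 10 reads per library, Insm1, St18 and Myt1 to 0 to 198 reads, and Neurog3 and Nkx2-2 to 150 or more. These reads are not scaled for depth or for the level in titled control. As a percent of the control mean, the order was not seen in every library. Mutant ND 2 kept Pax4 at 2.41% and Insm1, St18 and Myt1 at 0 to 1.42%. In mutant LPD 1 the first 4 kept 7.26 to 8.04% and the next 3 kept 7.90 to 9.41%. In sorted bulk RNA, fewer cells that make a factor and less of its RNA per cell cannot be told apart.

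Neurog3, the targeted gene, stood at 201, 172 and 170 CPM in control ND 2, 3 and 4 and at 8.55, 17.6, 8.52 and 10.1 CPM in mutant ND 1 to 4. On HFD it stood at 112, 85.0 and 121 CPM in the 3 titled control libraries and at 11.3, 6.09 and 8.16 CPM in the 3 titled mutant. On LPD the 4 titled control libraries held 205, 165, 191 and 135 CPM and the 4 titled mutant 19.86, 22.98, 7.283 and 6.01 CPM. Every titled control library thus lay above every titled mutant library, although Neurog3 counts never reached 0 (150 to 669 reads in titled mutant). The log2 difference was -4.05 (SE 0.39, adjusted p = 4.14e-07) on ND, -3.63 (SE 0.43, adjusted p = 1.96e-05) on HFD and -3.63 (SE 0.37, adjusted p = 1.5e-06) on LPD. Between 3.45 and 13.2% of the titled control mean remained in the 11 titled mutant libraries, and gene counts do not say which part of the gene these reads came from. Mutant ND 2 ranked highest of its group after TMM scaling. Its share of total counts (6.71 CPM) was close to that of mutant ND 3 (6.69 CPM) and below the others, and Gm26917 took most of that library. Fam241b, the gene overlapping Neurog3, was lower as well on ND (27.9 CPM against 12.8, log2 -1.12, SE 0.22, adjusted p = 0.000695) and on LPD (22.3 CPM against 11.1, adjusted p = 0.00171), and stood at log2 -0.56 (SE 0.24, adjusted p = 0.26) on HFD.

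Among the bHLH factors, Neurod1, which drives endocrine differentiation and binds the insulin promoter, held 85.9, 111 and 94.3 CPM in control ND 2 to 4. Mutant ND 1 held 3 Neurod1 reads in all and mutant ND 2, 3 and 4 held 0. Summed over libraries and scaled for depth, control was 3087 times mutant, with a 95% counting interval of 1056 to 14971. Such intervals cover counting error only, not the spread between libraries. The edgeR test gave log2 -11.39 (SE 1.79, adjusted p = 0.000197). On HFD, Neurod1 stood at 63.1, 57.0 and 73.3 CPM in titled control and at 1.90, 0 and 0 CPM in titled mutant (log2 -6.50, SE 1.38, adjusted p = 0.00641). On LPD it stood at 112.5, 102, 112 and 48.9 CPM in titled control and at 7.54, 7.95, 0 and 0 CPM in titled mutant (log2 -4.59, SE 1.05, adjusted p = 0.0063). Neurod1 was therefore absent at this depth in 7 of 11 titled mutant libraries, where a count of 0 allows up to 0.134 CPM of total in the shallowest, while 3 libraries held it plainly. Cerkl, which shares 201 exonic bases with Neurod1, moved with it, from 0.906 to 3.08 FPKM in titled control to 0 to 0.122 FPKM in titled mutant.

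Neurod2, a bHLH factor best known from neuronal differentiation, was less abundant. It stood at 42.0, 17.6 and 17.7 CPM in control ND 2 to 4, while mutant ND 1 held 1 read and the other 3 mutant ND libraries 0. Summed over libraries, control was 2192 times mutant (95% counting interval 393 to 86606), and the edgeR test gave log2 -10.77 (SE 1.41, adjusted p = 2.18e-05). On HFD the titled control libraries held 11.4, 9.01 and 18.8 CPM and the titled mutant libraries 0.496, 0 and 0 CPM (log2 -6.05, SE 1.08, adjusted p = 0.00119). On LPD they held 19.7, 19.25, 25.1 and 17.9 CPM against 1.51, 1.47, 0 and 0 CPM (log2 -4.75, SE 0.83, adjusted p = 0.000529). Reads of Neurod1 and Neurod2 were thus seen in the same 4 titled mutant libraries, ND 1, HFD 1, LPD 1 and LPD 2.

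Nhlh1, a bHLH factor of young neurons, was the least abundant of the 9 per length in titled control on each diet. It held 17.2, 10.8 and 11.8 CPM in control ND 2 to 4 and 1 read in all over the 4 mutant ND libraries, in mutant ND 4. That is 1182 times more in control (95% counting interval 211.8 to 46741), and the edgeR test gave log2 -9.82 (SE 0.96, adjusted p = 3.37e-07). On HFD it held 4.77, 4.21 and 9.88 CPM in titled control and again 1 read over the 3 titled mutant libraries. The ratio was 682 (95% counting interval 122 to 26989), and the edgeR test gave log2 -8.88 (SE 1.04, adjusted p = 1.56e-05). On LPD titled control held 15.1, 8.95, 11.4 and 10.3 CPM and titled mutant 0.831, 0.539, 0.0342 and 0 CPM (log2 -4.98, SE 0.61, adjusted p = 7.41e-06). Mutant HFD 1 kept Neurod1 at 2.94% of the control mean but Nhlh1 at 0.359%, a single read.

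Pax4, the homeodomain factor that favours beta and delta over alpha cells, stood at 56.0, 41.7 and 48.3 CPM in control ND 2 to 4 and at 0.0355, 1.17, 0 and 0 CPM in mutant ND 1 to 4 (log2 -8.50, SE 1.33, adjusted p = 0.000169). The value of mutant ND 2 rests on 10 reads. On HFD it held 25.75, 22.97 and 32.1 CPM in titled control and 1.015, 0 and 0.0609 CPM in titled mutant (log2 -6.04, SE 1.21, adjusted p = 0.00402). On LPD it held 57.0, 39.3, 43.1 and 31.7 CPM against 3.355, 3.81, 0 and 0.141 CPM (log2 -4.54, SE 0.93, adjusted p = 0.00276). Pax4 was at 0 in 4 of the 11 titled mutant libraries.

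Insm1, a zinc-finger factor needed for endocrine differentiation, was the most abundant of the 9 in CPM in titled control on each diet. Control ND 2 to 4 held 511, 313 and 312.5 CPM and mutant ND 1 to 4 held 7.025, 5.395, 5.99 and 4.09 CPM (log2 -6.07, SE 0.77, adjusted p = 2.29e-05). On HFD the values were 166, 130 and 219 CPM against 9.56, 2.75 and 2.44 CPM (log2 -5.10, SE 0.83, adjusted p = 0.000666). On LPD they were 297, 316, 353 and 190 CPM against 27.2, 21.5, 1.74 and 3.50 CPM (log2 -4.42, SE 0.69, adjusted p = 0.000236). Unlike Neurod1, Insm1 was read in all 11 titled mutant libraries, with at least 46 reads.

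Myt1, a zinc-finger factor of endocrine and neural progenitors, held 199.5, 174 and 170 CPM in control ND 2 to 4 and 0.9225, 0.235, 1.63 and 0.499 CPM in mutant ND 1 to 4 (log2 -7.66, SE 1.12, adjusted p = 0.0001). On HFD it held 88.7, 93.6 and 120 CPM against 4.40, 0.487 and 0.396 CPM (log2 -5.76, SE 1.12, adjusted p = 0.00333). On LPD it held 228, 170, 178 and 100.5 CPM against 13.4, 15.2, 0.376 and 0.778 CPM (log2 -4.50, SE 0.90, adjusted p = 0.00229). At equal level with Neurog3 in control ND (181 CPM each on average), Myt1 was left at 0.822 CPM ± 0.609 (SD, n = 4) in mutant ND and Neurog3 at 11.2 ± 4.33 (SD, n = 4).

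St18, the relative of Myt1, held 60.8, 84.4 and 72.4 CPM in control ND 2 to 4 and 0.426, 0, 1.06 and 0.530 CPM in mutant ND 1 to 4 (log2 -6.97, SE 0.85, adjusted p = 1.28e-05). On HFD it held 44.6, 49.55 and 58.4 CPM against 2.12, 0.487 and 0.670 CPM (log2 -5.47, SE 0.85, adjusted p = 0.000418). On LPD it held 100.3, 82.8, 83.8 and 44.5 CPM against 6.92, 7.70, 0.547 and 0.636 CPM (log2 -4.29, SE 0.68, adjusted p = 0.000245). St18 was read in 10 of the 11 titled mutant libraries and Myt1 in all 11.

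Nkx2-2, a homeodomain factor that multipotent pancreatic progenitors already express before it is restricted to endocrine cells, fell least. It held 206, 167 and 174 CPM in control ND 2 to 4 and 42.5, 54.3, 40.9 and 35.2 CPM in mutant ND 1 to 4 (log2 -2.08, SE 0.18, adjusted p = 9.5e-08). On HFD it held 106, 102 and 123 CPM against 39.9, 40.3 and 37.4 CPM (log2 -1.5, SE 0.20, adjusted p = 4.44e-05). On LPD it held 185, 182, 192 and 112 CPM against 46.3, 46.4, 33.1 and 32.4 CPM (log2 -2.08, SE 0.17, adjusted p = 2.01e-07). Titled mutant libraries therefore kept 19.3 to 36.4% of the control mean, within a narrow range of 32.4 to 54.3 CPM over all 11. The antisense gene 6430503K07Rik, which lies inside the Nkx2-2 locus without sharing an exon with it, fell on each diet (log2 -2.21 on ND, -1.76 on HFD and -1.76 on LPD, adjusted p at most 0.000157).

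**Figure D1:**
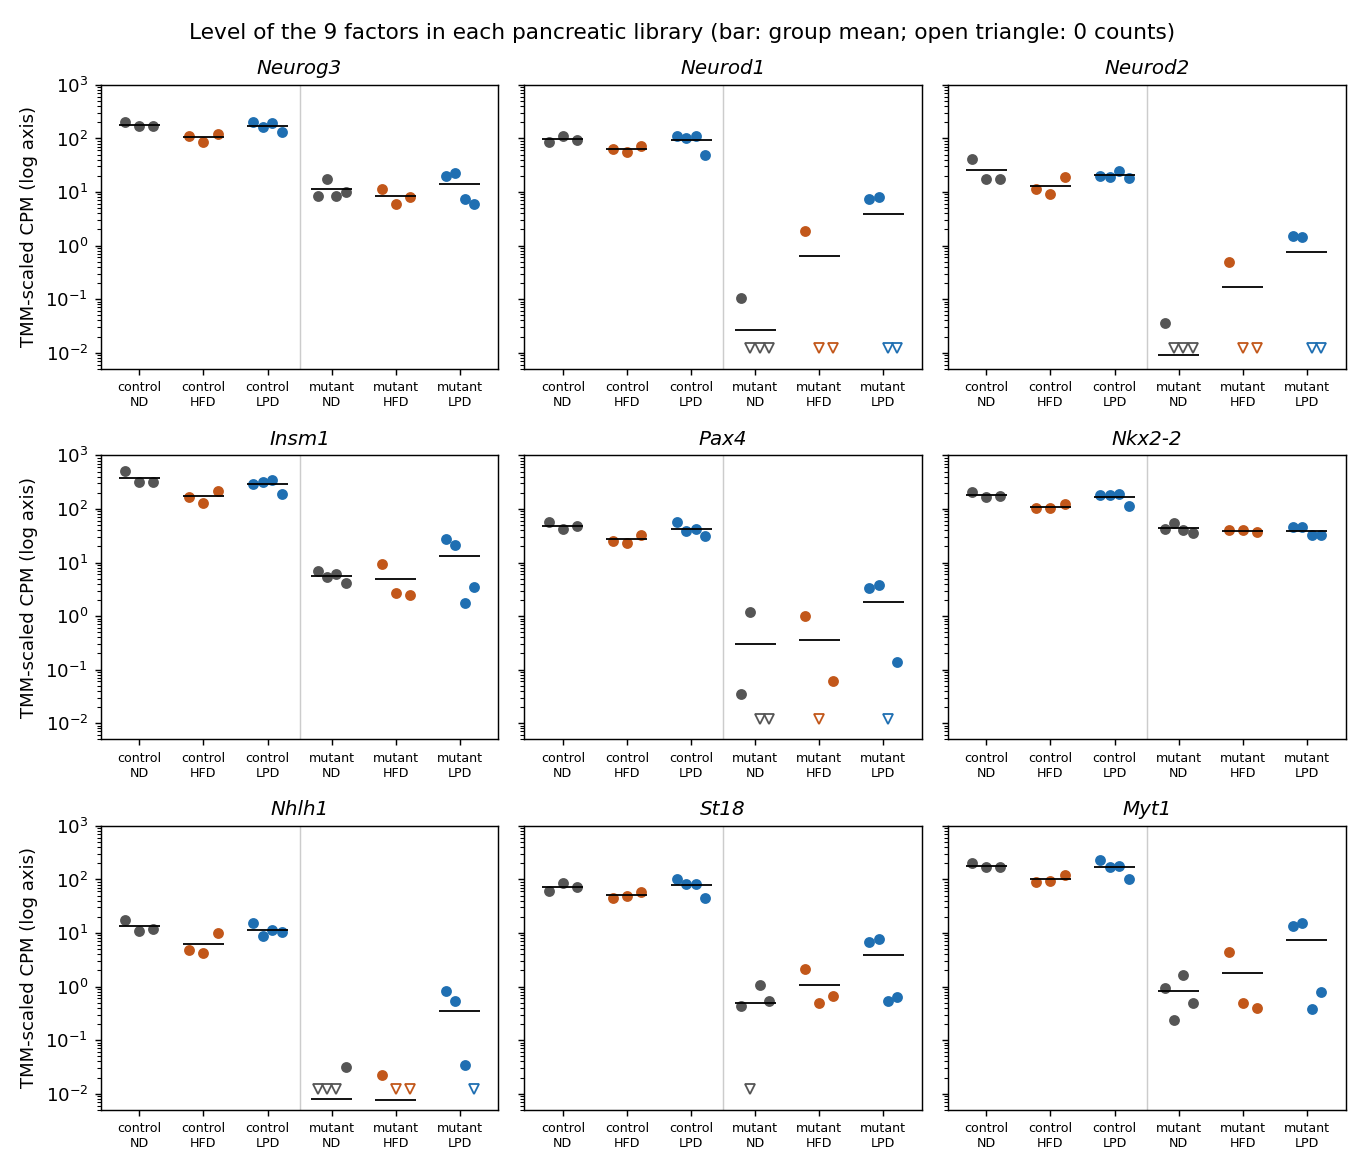
TMM-scaled CPM (log axis) of each factor in the 21 pancreatic libraries by group, with points for libraries, bars for group means and open triangles for 0 counts. Nkx2-2 stays between 32.4 and 54.3 CPM in titled mutant, whereas Neurod1, Neurod2 and Nhlh1 are at 0 in most titled mutant libraries.

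Titled mutant libraries were not alike. In HFD 1, LPD 1 and LPD 2 most of the factors were left at a higher level than in the other 8. Neurod1 kept 2.94 to 8.47% of the control mean in those 3 libraries and 0 to 0.11% in the other 8. Myt1 kept 4.37 to 8.996% against 0.129 to 0.899%, and Insm1 5.57 to 9.41% against 0.604 to 1.86%. Pax4 kept 3.77 to 8.91% against 0 to 2.41%, and St18 4.17 to 9.88% against 0 to 1.46%. Neurog3 kept 10.65 to 13.2% against 3.45 to 9.72%, a narrow gap, and in CPM mutant ND 2 (17.6) lay above HFD 1 (11.3). For Nhlh1 only LPD 1 and LPD 2 were apart, at 7.26 and 4.71%, because HFD 1 (0.359%) and the highest of the other 8 (0.298%) each rest on 1 read. Nkx2-2, at 27.6 to 36.1% against 19.3 to 36.4%, did not separate them.

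Hormone genes were at a higher level in the same 3 libraries. The summed level of the 8 hormone genes was 74.3 CPM of total in HFD 1, 303 in LPD 1 and 309 in LPD 2, against 0.492 to 9.68 in the other 8 and 1494 to 7373 in titled control. The median over hormone genes was 3.48% of the control mean in HFD 1, 11.3% in LPD 1 and 11.03% in LPD 2, against 0 to 0.209% in the other 8. Ghrl, which encodes ghrelin, departed from this, since it kept 10.48 to 49.7% of the control mean in the other 8 libraries too. LPD 1 and LPD 2 also differed least of all pairs of libraries within a group (chi-square of 3.28 per degree of freedom over genes, against 4.39 to 140 in other pairs), which is still above sampling noise. The part of hormone-producing cells in the remaining factor reads was not tested.

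**Figure D2:**
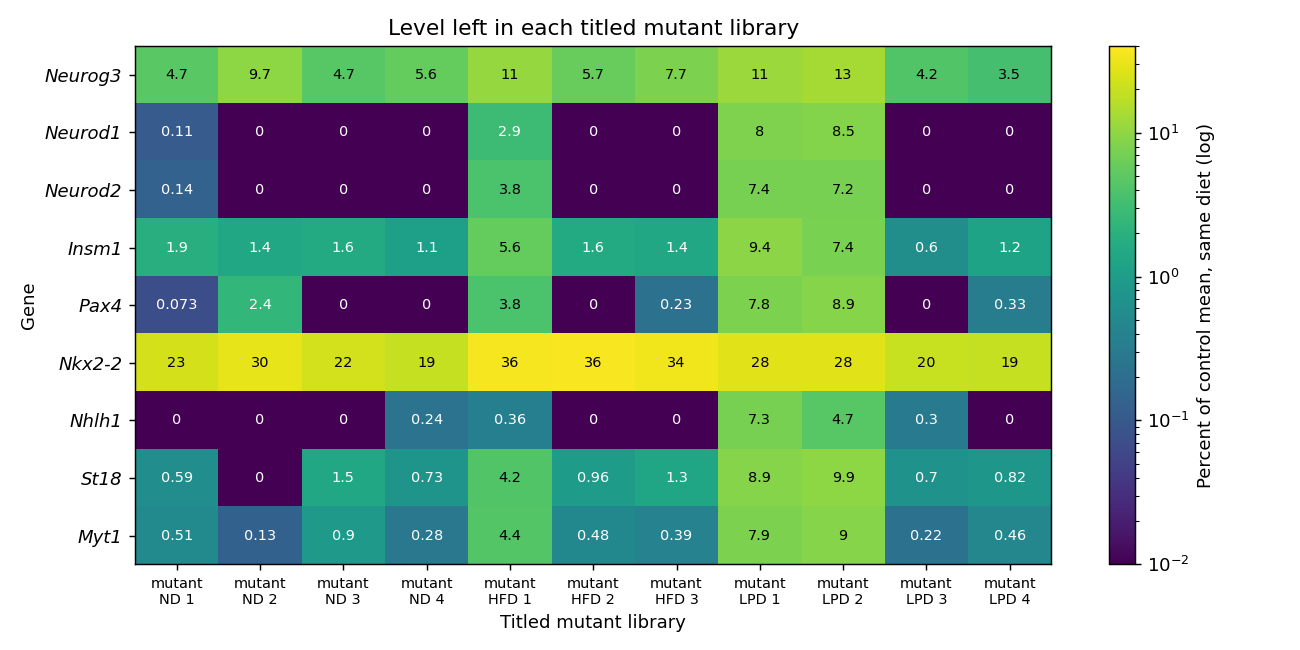
Percent of the titled control mean on the same diet for the 9 factors (rows) in the 11 titled mutant libraries (columns), on a log colour scale. LPD 1 and LPD 2 hold more than the other libraries for all factors except Nkx2-2, and HFD 1 does so for Neurod1, Neurod2, Insm1, Pax4, St18 and Myt1 when set against the 8 remaining libraries.

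The factors sit within a larger program, and the surrounding genes moved unevenly. Of 17 genes known to act upstream of Neurog3, 4 were higher and 4 lower in titled mutant on ND, with a median log2 of 0.02 against 0.01 over all genes tested. Of all genes, 13.7% were called higher in titled mutant on ND, 0.14% on HFD and 5.22% on LPD, beside the shares called lower given above. Pdx1, the homeobox factor of pancreas and beta cells, was lower (log2 -1.25, SE 0.16, adjusted p = 6.69e-06), as was Nkx6-1 of beta cells (log2 -1.62, SE 0.27, adjusted p = 0.00013). Gata4, a zinc-finger factor that later marks acinar cells, was higher (log2 1.63, SE 0.27, adjusted p = 0.000119). On HFD, 0 of the 17 were higher and 2 lower, and on LPD 2 were higher and 5 lower.

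Of the Notch genes, 6 of 15 tested were higher and 3 lower on ND (median log2 0.70), where 13.7% of all genes were called higher and 13.3% lower. Jag1, a Notch ligand, rose (log2 1.27, SE 0.23, adjusted p = 0.000327), as did the receptor Notch1 (log2 1.07, SE 0.21, adjusted p = 0.000799). Mfng, a glycosyltransferase that modifies Notch receptors, fell on ND (log2 -2.12, SE 0.19, adjusted p = 1.56e-07), on HFD (log2 -1.58, SE 0.21, adjusted p = 5.03e-05) and on LPD (log2 -1.95, SE 0.18, adjusted p = 5.48e-07). On HFD, 0 Notch genes were higher and 1 lower, and on LPD 3 were higher and 4 lower. On ND, limma on log2(FPKM + 1) called 2 higher and 5 lower, with the median of all genes at -0.232, while DESeq2 size factors in edgeR left the count at 6 and 3. The cause of that move was not tested. Acinar markers were higher beside them, with 10 of 12 called on ND and 10 of 12 on LPD, but 0 on HFD. Their part in the Notch and upstream counts was not tested.

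Downstream the direction was one-sided. Of 15 tested genes among other reported Neurog3 targets, 13 were lower and 1 higher on ND, 10 lower on HFD and 11 lower on LPD, with medians of -2.95, -1.70 and -2.47. Celf3, an RNA-binding protein, fell on all 3 diets (log2 -4.25, -3.65 and -3.33, adjusted p at most 4.04e-06). On ND the kinase Pak3 fell by 4.13 and the growth-arrest gene Gadd45a by 2.95 on the log2 scale (adjusted p = 8e-08 and 8.4e-08). Of 25 later endocrine factors, 20 were lower on ND, 19 on HFD and 21 on LPD and none was higher, with medians of -3.95, -2.97 and -3.11. Tox3 (log2 -3.74, -2.97 and -3.11) and the glucose-responsive Mlxipl (log2 -4.58, -3.09 and -3.15) were among those of smallest adjusted p on each diet. Sox4 and Hhex, members of that list, were not called on ND (log2 -0.02 and 0.09, adjusted p = 0.947 and 0.809). Hormone genes were lower for 8 of 8 on ND, 5 on HFD and 5 on LPD.

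The genes whose profile over the 21 libraries was closest to that of Neurog3 were not the other 8 factors. By root mean square difference of centred log2 CPM, among 11144 genes averaging 5 CPM or more, the nearest were Necab2 (0.28), the calcium channel genes Cacna1a (0.29) and Cacna2d1 (0.33), the calcium pump gene Atp2a3 (0.31), Syt7 (0.32) and Lingo1 (0.36). The same measure was 1.0 for Insm1, 1.05 for Nkx2-2, 1.48 for Nhlh1, 1.69 for St18 and 1.85 for Myt1. It was 1.88 for Neurod2, 2.06 for Pax4 and 2.88 for Neurod1. Within the 10 titled control libraries alone the nearest were Mmd2 (0.06), Trim45 (0.09) and Ncs1 (0.11). Distances of the other 8 factors within titled control are not given here. Those over 21 libraries describe libraries that share a large difference between titles, so they also reflect how far each gene fell.

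The second question was whether maternal diet moved the factors. In titled control, HFD against ND gave a negative estimate for all 9, from log2 -0.51 for St18 to -1.14 for Insm1. The median over all genes was -0.013. Among the 9 only Nkx2-2 was called, where 3.91% of all genes were. Its mean was 182 CPM ± 20.9 on ND and 110.6 ± 11.01 on HFD (SD, n = 3 each), with an adjusted p of 0.0389 for a log2 change of -0.72 (SE 0.19). Nkx2-2 on HFD was 60.7% of its ND mean. Neurog3 stood at 58.5% of its ND mean (means of 106 and 181 CPM, log2 -0.77, SE 0.38, adjusted p = 0.276). Insm1 stood at 45.3% (means of 172 and 379 CPM, log2 -1.14, SE 0.70, adjusted p = 0.404) and Nhlh1 at 47.4% (log2 -1.07, SE 0.56, adjusted p = 0.31). Neurod1 stood at 66.4% (log2 -0.59, SE 1.03, adjusted p = 0.818), and Pax4 and Myt1 at 55.3% and 55.5%. The standard errors of Neurod1, Neurod2, Pax4 and Myt1, 0.79 to 1.03, come from a spread estimated over all 21 libraries, including the uneven titled mutant ones.

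How many factors were called turned on the libraries in the fit. With only the 6 compared libraries, 6 were called lower on HFD: Neurog3 (log2 -0.79, adjusted p = 0.0204), Neurod1 (-0.60, 0.0327), Insm1 (-1.16, 0.0273), Pax4 (-0.87, 0.0207), Myt1 (-0.86, 0.014) and Nkx2-2. The share of all genes called in that smaller fit is not given here, and the 3.91% above is from the fit of 21 libraries. The Nkx2-2 call was lost when any of control ND 2, control ND 3, the 3 control HFD or the 3 mutant HFD libraries was left out (adjusted p = 0.0512 to 0.202). It was also lost without the ND libraries of over 70% duplicates (log2 -0.66, adjusted p = 0.0765) and with the label number of the library as a covariate (log2 -0.68, adjusted p = 0.192). In all, 15 of the 34 alternatives lost the Nkx2-2 call. Other factors gained a call 7 times over the alternatives, the fit of only the compared libraries included, so the called factor was not always Nkx2-2. Of the 3 control ND libraries only ND 4 has a low label number (8, where the others have 31 and 32 and control HFD 11 to 15), and it held 174 CPM of Nkx2-2 against 102 to 123 CPM on HFD. Acinar markers moved with this comparison, as 10 of 12 were higher on HFD and their sum was 24830 to 30590 CPM of total on HFD against 6662 to 10890 on ND. Their part in the result was not tested.

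Some other genes of the cascade were called on HFD too, where 3.91% of all 23630 genes were called (733 higher and 191 lower). Hes1, the Notch effector that represses Neurog3, was higher (109 CPM ± 17.4 against 40.85 ± 9.74, SD, n = 3 each, log2 1.41, SE 0.26, adjusted p = 0.00535). Pdx1 was lower (log2 -0.72, SE 0.17, adjusted p = 0.0231) and Gata4 higher (log2 1.26, SE 0.28, adjusted p = 0.0143), while the other 15 upstream genes were not called. The Notch ligand Dll3 was lower (log2 -1.51, SE 0.35, adjusted p = 0.0212), and of 15 Notch genes 2 were higher and 2 lower. Mafa, a beta-cell factor, was the 1 of 25 later factors called (log2 -1.88, SE 0.45, adjusted p = 0.0246), which is close to the share over all genes. Gadd45a was the 1 of 15 other targets called (log2 -1.03, SE 0.26, adjusted p = 0.0286). The median was -0.78 over the later factors and -0.89 over the other targets, against -0.013 over all genes.

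On LPD the titled control factors stood close to ND. Estimates ran from log2 -0.39 (Insm1, SE 0.64) to 0.10 (St18, SE 0.63). By edgeR 0 factors were called, where 0% of all genes were called. None of the 9 had an unadjusted p under 0.05, and DESeq2 called 0 of them and 7 genes in all. Neurog3, for example, stood at 174 CPM ± 31.01 (SD, n = 4) on LPD against 181 ± 17.7 (SD, n = 3) on ND (log2 -0.06, SE 0.35). Control LPD 4 was the lowest of its group for 8 of the 9 factors. With HFD against LPD, estimates were again all negative (log2 -0.54 to -0.86), 0 factors were called, and 0% of all genes were called. Nkx2-2 had an unadjusted p of 0.00336 there (log2 -0.60, SE 0.18, adjusted p = 0.743), the 1 factor below 0.05, and DESeq2 called 0. HFD against ND and HFD against LPD share the HFD libraries.

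**Figure D3:**
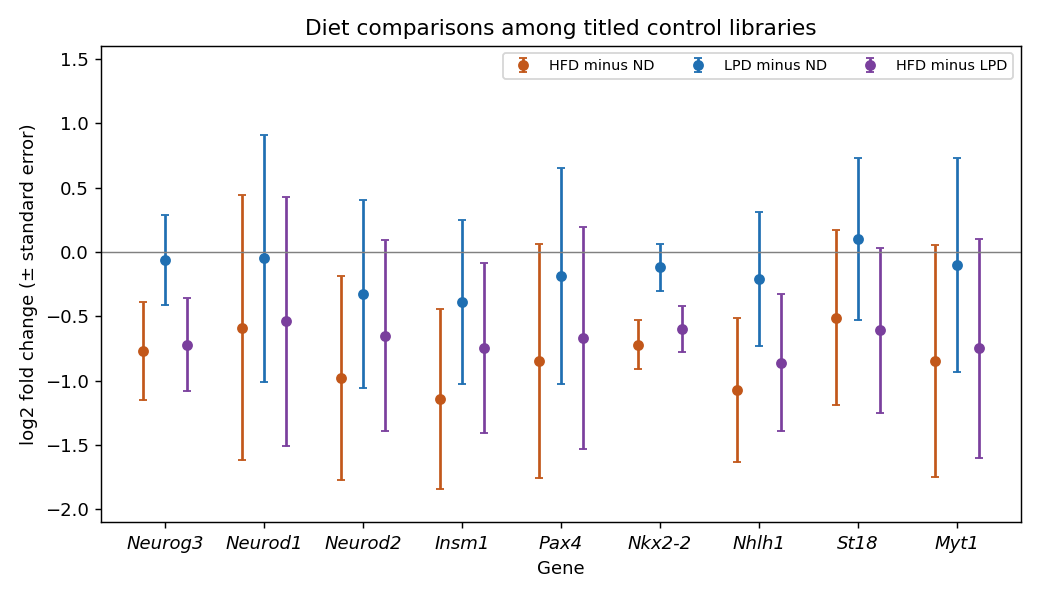
Log2 fold change (vertical axis, with standard errors as bars) of each factor between diets in titled control libraries. All 9 points for HFD minus ND lie between -0.51 and -1.14, those for LPD minus ND between -0.39 and 0.10, and those for HFD minus LPD between -0.54 and -0.86.

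In titled mutant, 0 factors were called on HFD against ND by edgeR (2.86% of all genes were), with 0 at an unadjusted p under 0.05 and 0 by DESeq2. Neurog3 gave log2 -0.36 (SE 0.38) and Nkx2-2 -0.14 (SE 0.18). On LPD against ND, 0 factors were called by edgeR, where 1.05% of all genes were. An unadjusted p under 0.05 was seen for 6 factors, and DESeq2 called 5 (Neurod1, Neurod2, Nhlh1, St18 and Myt1). The shares of all genes by these measures are not given here. The estimates for LPD against ND rest on mutant LPD 1 and LPD 2. For Myt1 they held 450 and 423 reads, LPD 3 and LPD 4 held 11 and 22, and the 4 mutant ND libraries 2 to 40. Without the 3 titled mutant libraries of highest hormone level, the estimate for Myt1 went from log2 3.06 to -0.63 (adjusted p = 0.625), and those of 5 other factors changed sign as well. With mutant LPD 4 left out, Nhlh1 was called (log2 5.03, adjusted p = 0.0367). HFD against LPD gave 0 called factors and 0% of genes, with Nhlh1 and St18 at an unadjusted p under 0.05 and 0 by DESeq2.

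Whether the difference between titles itself changed with diet was tested as an interaction. For HFD minus ND, 0 of the 9 factors and 0% of all genes were called, and Nkx2-2 (log2 0.58, SE 0.26, unadjusted p = 0.038, adjusted p = 0.682) was the 1 factor below an unadjusted 0.05. For LPD minus ND, 0 factors and 0% of genes were called. There 6 factors, Neurod1, Neurod2, Pax4, Nhlh1, St18 and Myt1, had an unadjusted p under 0.05, and the lowest was 0.00203 for Nhlh1 (adjusted p = 0.832). The share of all genes below that unadjusted level is not given here. DESeq2 called 0 in both. For Neurog3 the interaction was log2 0.42 on both diets (SE 0.53 for HFD and 0.49 for LPD).

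Per length, in FPKM, the order of the factors in control ND was Insm1 (132 ± 15.1), Neurog3 (119 ± 9.15), Nkx2-2 (69.9 ± 4.40), Neurod1 (40.2 ± 10.9), Pax4 (37.0 ± 2.96), Myt1 (27.9 ± 2.425), St18 (12.7 ± 3.845), Neurod2 (8.61 ± 3.04) and Nhlh1 (5.835 ± 0.463; each mean ± SD, n = 3). The ranges of Insm1 and Neurog3, of Neurod1 and Pax4, and of St18 and Neurod2 overlapped, and the other neighbours did not. On HFD and LPD, Neurog3 came first and Insm1 second with overlapping ranges, and the other 7 kept this order of means. On LPD every pair of neighbours overlapped.

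The 2 hypothalamic libraries gave another order, with no test since there was 1 per title. Hypothalamic markers summed to 1223 CPM of total in the titled control and 1393 in the titled mutant library, against 3.44 to 50.7 over the pancreatic groups, and Nkx2-1 held 7986 and 7528 reads. Myt1 stood at 47.0 FPKM in the titled control and 39.7 in the titled mutant library, St18 at 22.2 and 20.7, and Nhlh1 at 18.4 and 15.3. These 3 lay above their control ND range in pancreas (25.1 to 29.8, 8.52 to 16.1 and 5.40 to 6.32 FPKM). Control LPD reached 42.5 FPKM for Myt1 and 20.85 for St18, above the titled mutant hypothalamic library, and 8.24 for Nhlh1. Insm1, at 43.0 and 53.2 FPKM, lay below its range of 122 to 149. Neurod1 (5.73 and 3.10 FPKM), Neurod2 (4.645 and 2.615 FPKM) and Nkx2-2 (3.13 and 3.58 FPKM) lay below theirs.

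Neurog3 and Pax4 were the low extremes of the hypothalamus. Neurog3 had 77 reads, or 2.75 CPM of total (95% Poisson interval 2.17 to 3.43), in the titled control and 17 reads, or 0.568 CPM (0.331 to 0.909), in the titled mutant library. Pax4 had 0 reads in both, which allows up to 0.107 and 0.1 CPM of total by the limit of 3 counts. For Neurod1 the values were 15.6 CPM (14.2 to 17.2) and 8.45 CPM (7.44 to 9.56), and for Neurod2 14.6 CPM (13.2 to 16.1) and 8.22 CPM (7.22 to 9.31). For Nhlh1 they were 45.25 CPM (42.8 to 47.8) and 37.6 CPM (35.45 to 39.9), and for Insm1 133 CPM (128.9 to 137.5) and 165 CPM (160.2 to 169.5). The intervals cover counting error only and compare these 2 libraries, not the titles. They take each read as an independent count. Duplicates were 77.5% of reads in the titled control and 82.3% in the titled mutant library, so the intervals may be too narrow. Where Neurod1 and Nhlh1 were at or near 0 in most titled mutant pancreas, the titled mutant hypothalamic library still held 253 and 1126 of their reads.

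**Figure D4:**
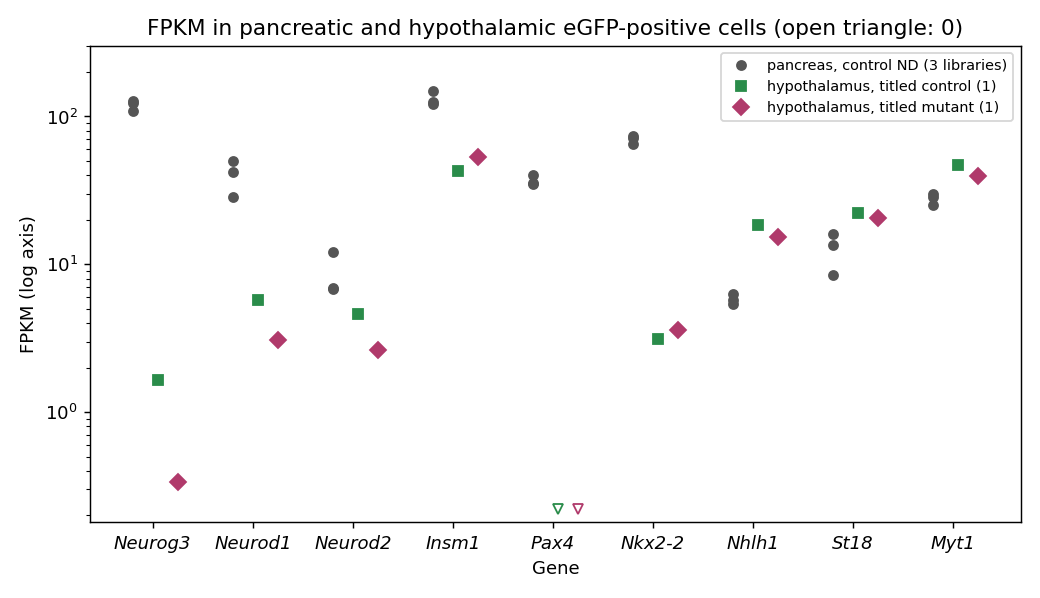
FPKM (log axis) of each factor in the 3 control ND libraries of pancreas and the 2 hypothalamic libraries, with open triangles for 0. Nhlh1, St18 and Myt1 are higher in hypothalamus than in these 3 control ND libraries, while Neurog3 is at 109 to 126 FPKM in pancreas and at 1.64 and 0.339 in hypothalamus.

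Paralogues separated the tissues further. Neurog2, the neurogenin of neural progenitors, held 18.9 and 17.3 FPKM in the titled control and titled mutant hypothalamic library (1178 and 1156 reads) and at most 7 reads in any of the 21 pancreatic libraries. Nhlh2 held 18.96 and 6.01 FPKM in hypothalamus against at most 9 reads in pancreas, and Neurod6 held 11.2 and 10.25 FPKM against 0 reads. Myt1l, a neuronal relative of Myt1, held 19.3 and 18.3 FPKM in hypothalamus and 0.472 to 1.52 FPKM in the titled control pancreas. In pancreas Myt1l was lower in titled mutant on each diet (log2 -5.92, -4.95 and -4.11, adjusted p at most 0.000218). Pax6, the relative of Pax4, was also lower on each diet (log2 -9.53, -5.79 and -4.51, adjusted p at most 0.00903), and it was strong in pancreas (9.03 to 37.3 FPKM in titled control) but faint in hypothalamus (0.259 and 0.177 FPKM). Of the 13 paralogues in the table, 5 passed the filter in pancreas. On ND 2 of them were higher and 2 lower, and on HFD and on LPD 2 were lower and 0 higher.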

How the data were processed

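Per the labels' protocols, ribosomal RNA was depleted and libraries kept the strand. Per the submitters' processing notes, cutadapt 2.10, STAR 2.7.8a and featureCounts 2.0.2 were used with build GRCm38.p6. The deposited counts are whole-number counts per gene with no normalization, and the deposited FPKM values are scaled by gene length and library total (recomputing them from counts and gene lengths gave values 9.6e-05 away in relative terms, as a median). The deposited percent of duplicate reads per library comes from an exported table of read statistics, whose tools are not stated. Gene names turned into dates (26) were restored by identifier, and 2 lines that name no gene were left out.

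Counts of 21 libraries in 6 groups, by title and diet, were fitted together with edgeR 4.0.16 in R 4.3.3 (filterByExpr, TMM, robust quasi-likelihood F-tests, Benjamini-Hochberg over 23630 genes, threshold 0.05), in 11 comparisons. The test was tried on simulated data first. Standard errors are the size of the log2 change over the square root of F. Ratios for groups of 1 to 3 reads carry exact binomial intervals at 95%, and libraries outside the fit have exact Poisson intervals. A count of 0 allows up to 3 counts. The alternatives were DESeq2 1.42.0, its size factors in edgeR, no filter, limma 3.58.1 on log2(FPKM + 1) and log2(FPKM + 0.1), only the compared libraries, a replicate block, the mixed library as control, leaving out libraries of many duplicates or the 3 titled mutant libraries of highest hormone level, Gm26917 left out, the label number of 25 or above as a covariate, and leaving out each library. Summing mutant LPD 1 and LPD 2 was added after the data were seen. Titled control and mutant libraries share numbers. On HFD the deviations of libraries of the same number had correlations of 0.28, 0.53 and 0.65. Libraries of different numbers on HFD had -0.58 to 0.33. The labels give no pairing, so the main fit used none, and the replicate block was an alternative.

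The text names all 9 factors, genes of smallest adjusted p (up to 3 called genes of a list in a comparison), genes closest to Neurog3 in profile, and overlapping genes; Hes1, Dll3, Sox4, Hhex and the paralogues without a call were named after their values were seen. The factors and lists were chosen with earlier results of these data known. Figures were drawn with matplotlib 3.10.9.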

Additional observations from a re-analysis of the deposited data

Results flagged for a closer look

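In groups of 4 libraries, the highest or lowest value was set against its nearest neighbour, relative to the range (Dixon's 95% critical value). Of 27 groups tested 6 passed. Chance flags about 1 in 20 groups of continuous values, but 3 of the 6 are 1 to 3 reads beside 3 libraries at 0, which pass whatever the value, so that rate does not apply to them. Control LPD 4 was far below the other 3 libraries for Neurod1 (48.91 CPM against 102 to 112.5) and Nkx2-2 (112.2 CPM against 181.6 to 191.7). Mutant ND 1 was apart for Neurod1 (0.1064 CPM, 3 reads) and Neurod2 (0.0355 CPM, 1 read), where the other 3 were at 0. Mutant ND 4 was apart for Nhlh1 (0.0312 CPM, 1 read) and mutant ND 2 for Pax4 (1.173 CPM, 10 reads, against 0 to 0.0355).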

How the results depend on the processing

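Under all 34 alternatives the 9 factors were called lower in titled mutant on each diet. For HFD against ND in titled control, 6 factors were called with only the compared libraries, a fit whose share of all genes is not given here. The count was 0 with no filter, with limma on log2(FPKM + 0.1) and with the mixed library as control. Removing ND libraries above 70% duplicates also gave 0, as did the library number as a covariate. Leaving out single libraries gave 0 to 1. For LPD against ND in titled mutant, DESeq2 called 5 (its share of all genes is not given here), and leaving out single libraries gave 0 to 1. Without the 3 titled mutant libraries of highest hormone level, 6 of those estimates turned sign: Neurog3 to -0.73, Neurod1 to -3.11, Neurod2 to -1.83, Insm1 to -1.11, Pax4 to -0.88 and Myt1 to -0.63. Nkx2-2 there turned from -0.12 to 0.28 and 0.30 by limma (pseudocounts 1 and 0.1) and to 0.03 without the ND libraries of many duplicates. The causes were not tested. With the replicate block, 9 factors were called for genotype on each diet, 1 for HFD against ND in titled control and 0 elsewhere, as without it. Correlations between libraries of the same number had mixed signs on ND (0.71, -0.11 and -0.05) and on LPD (-0.28, 0.57, -0.57 and 0.48). By limma on log2(FPKM + 1), the median log2 of all genes was -0.232 for genotype on ND and 0.211 for LPD against ND in titled mutant (0.010 and 0.057 by edgeR). Genotype calls on ND were 3234 higher and 3147 lower by edgeR, 2734 and 3600 with DESeq2 size factors, 3260 and 4104 by DESeq2, and 401 and 4282 by limma. Depth limits the titled mutant values at 0 to 3 reads, where ratios are known only within wide counting intervals.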

Other observations

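The ND library of mixed genotype held reads of all 9 factors. As a percent of the control ND mean in FPKM, it held Neurod2 at 38.0, Insm1 at 33.3, Pax4 at 25.1, Nkx2-2 at 21.75, Neurog3 at 20.4, Myt1 at 19.5, Nhlh1 at 15.7, St18 at 12.4 and Neurod1 at 4.42. Gm26917 took 56.8% of its counts, and 80.2% of its reads were duplicates.

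Leaving out the titled mutant libraries of highest hormone level removes the highest titled mutant values by construction, so the following are descriptions. With mutant HFD 1 left out, control HFD was at least 1327-fold higher for Neurod1, 272-fold for Neurod2 and 132-fold for Nhlh1, taking 3 counts over the group as the floor (with all 3 libraries the Nhlh1 ratio was 682, with a counting interval of 122 to 26989). With mutant LPD 1 and LPD 2 left out, control LPD was at least 1716-fold higher for Neurod1 and 391-fold for Neurod2.

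In titled control the ratio of Neurod1 to Neurog3 counts ran from 0.363 in LPD 4 to 0.67, and that of Insm1 to Neurog3 from 1.41 to 2.54, the highest in ND 2. Some listed genes differed by diet in titled mutant where the 9 factors were not called. Cdkn1c, a cell cycle inhibitor, was lower on HFD (log2 -0.78, SE 0.16, adjusted p = 0.0175) and on LPD (log2 -1.07, SE 0.15, adjusted p = 0.0036) than on ND. Sox4, a factor of progenitors and endocrine precursors, was lower on both as well (log2 -0.85, SE 0.18, adjusted p = 0.0203 and log2 -0.90, SE 0.17, adjusted p = 0.0232). Both comparisons share the 4 mutant ND libraries, which include the 2 titled mutant libraries with the largest Gm26917 shares (66.9 and 33.4%). Mesenchyme markers summed to 886 to 3713 CPM of total in mutant ND, against 104 to 669 in mutant HFD and 202 to 1001 in mutant LPD. The part of either in these differences was not tested.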
